A study of Caenorhabditis elegans with 2 samples.

Results

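The sites described here are autosomal binding sites of the nuclear receptor NHR-6 that lie between genes and away from protein-coding promoters. The authors' optimal set held 1292 peaks on autosomes, and 279 of these met the rule. A site was counted when its summit lay outside every window from 1000 bp upstream to 200 bp downstream of a protein-coding transcript's 5′ end, and outside every annotated gene other than piRNA genes. Signal played no part in the choice beyond the authors' own selection of the optimal set. The 279 sites made up 21.6% of the autosomal optimal peaks (95% exact interval 19.4 to 23.9%), beside 757 promoter peaks and 256 peaks inside genes. Chromatin immunoprecipitation and sequencing (ChIP-seq) had been done on 2 biological replicates of whole L2 larvae of strain OP90, and the 2 replicates formed the only group. This strain carries unc-119(ed3) on chromosome III and the integrated transgene wgIs90, which supplies NHR-6 tagged with eGFP. The sexes were pooled, the age was listed as unknown, and the whole animal was sampled, so no site can be given to a cell type. An untagged or input sample was not analysed here.

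NHR-6 is the worm counterpart of the NR4A receptors of mammals, which bind DNA without a known hormone and are known for rapid induction by growth and stress signals. In the worm the gene is known for its part in building the spermatheca, the organ in which eggs are fertilised. NR4A proteins of mammals recognise the letters AAAGGTCA as monomers. Worm genes are packed closely, and most known regulatory DNA of this animal lies just upstream of genes. Distal elements do occur, and many carry open chromatin in larvae. Sequence between genes also holds repeats and the start sites of small RNA genes.

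The sequences at the 6 sites next in pooled signal after the highest, which is described further on without its sequence, open the description, since they show what strong distal sites look like. Each is the summit with 50 bp on either side on build ce11, read from the reference genome and written 5′ to 3′. Capitals mark the 8-mers GAGAGAGA and AGACGCAG on either strand, and the strand is the one that holds more of them forward. The sites lay upstream of F54F12.1 (chrIII:13061271-13061371, minus strand), mtm-3 (chrIII:3801507-3801607, plus), hif-1 (chrV:20778370-20778470, plus), ogt-1 (chrIII:7155796-7155896, plus), sup-26 (chrIII:4282118-4282218, plus) and din-1 (chrII:11635893-11635993, plus).
F54F12.1 site: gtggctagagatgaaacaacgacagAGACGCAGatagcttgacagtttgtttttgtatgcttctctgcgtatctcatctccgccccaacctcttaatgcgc
mtm-3 site: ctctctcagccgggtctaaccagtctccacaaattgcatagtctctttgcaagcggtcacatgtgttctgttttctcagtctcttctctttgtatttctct
hif-1 site: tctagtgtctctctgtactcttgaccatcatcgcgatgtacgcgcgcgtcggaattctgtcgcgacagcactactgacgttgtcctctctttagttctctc
ogt-1 site: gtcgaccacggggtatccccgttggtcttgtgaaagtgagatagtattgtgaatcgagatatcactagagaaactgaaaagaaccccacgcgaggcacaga
sup-26 site: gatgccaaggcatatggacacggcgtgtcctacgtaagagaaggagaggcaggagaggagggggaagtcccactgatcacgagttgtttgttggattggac
din-1 site: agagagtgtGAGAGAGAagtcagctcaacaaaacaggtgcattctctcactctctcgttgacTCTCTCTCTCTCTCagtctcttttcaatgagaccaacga
The din-1 window holds GAGAGAGA and its reverse complement, and the F54F12.1 window holds AGACGCAG. The other 4 windows hold neither 8-mer, and none of the 6 holds AAAGGTCA. The window of the highest site, by mfb-1, holds AGACGCAG and not GAGAGAGA.

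Further windows show the 8-mers at sites of different strength. They came from sites near Y17G7B.17 (chrII:12102519-12102619, plus strand), aakg-1 (chrIII:12583638-12583738, plus), T04C4.3 (chrIV:2219575-2219675, plus), F23F1.4 (chrII:29703-29803, minus), 2L52.1 (chrII:758-858, minus) and M117.1 (chrIV:11809782-11809882, plus), with the same capitals.
Y17G7B.17 site: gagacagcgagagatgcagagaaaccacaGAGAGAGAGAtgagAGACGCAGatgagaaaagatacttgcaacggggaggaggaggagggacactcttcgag
aakg-1 site: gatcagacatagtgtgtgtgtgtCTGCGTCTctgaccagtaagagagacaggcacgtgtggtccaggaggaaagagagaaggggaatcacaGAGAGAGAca
T04C4.3 site: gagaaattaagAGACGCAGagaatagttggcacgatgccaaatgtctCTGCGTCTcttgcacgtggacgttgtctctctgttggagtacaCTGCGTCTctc
F23F1.4 site: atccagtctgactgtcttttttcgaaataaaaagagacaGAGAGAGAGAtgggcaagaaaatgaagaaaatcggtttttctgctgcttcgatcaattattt
2L52.1 site: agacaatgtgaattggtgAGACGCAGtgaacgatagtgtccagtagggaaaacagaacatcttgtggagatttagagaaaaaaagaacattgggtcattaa
M117.1 site: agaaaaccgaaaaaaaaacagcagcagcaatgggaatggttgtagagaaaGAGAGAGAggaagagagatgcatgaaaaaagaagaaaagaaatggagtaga
Both 8-mers occur in the Y17G7B.17 and aakg-1 windows. The T04C4.3 window has 24 capital bases, all from AGACGCAG on one strand or the other.

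Another 3 windows carry AGGTCA, the core of the NR4A element, which is in capitals here. They lay upstream of ret-1 (chrV:14848753-14848853, plus strand), fat-2 (chrIV:13322592-13322692, minus) and wnk-1 (chrIV:9198265-9198365, plus).
ret-1 site: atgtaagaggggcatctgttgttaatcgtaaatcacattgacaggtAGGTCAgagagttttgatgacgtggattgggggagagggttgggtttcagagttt
fat-2 site: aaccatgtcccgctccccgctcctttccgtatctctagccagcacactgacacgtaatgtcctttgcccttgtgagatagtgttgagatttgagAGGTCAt
wnk-1 site: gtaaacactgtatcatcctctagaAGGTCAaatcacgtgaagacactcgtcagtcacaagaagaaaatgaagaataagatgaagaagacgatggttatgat
Their pooled signals were 108.5, 95.4 and 80.8. None of the cores is preceded by the letters that would complete AAAGGTCA.

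The last pair of windows shown lay near genes annotated as snoRNA, which encode guides for RNA modification. One was 50 bp upstream of F12F6.11 (chrIV:11549864-11549964, plus strand) and the other 277 bp downstream of the 5′ end of Y73B6A.15 (chrIV:6751380-6751480, plus). Neither holds a marked 8-mer, so both are printed without capitals.
F12F6.11 site: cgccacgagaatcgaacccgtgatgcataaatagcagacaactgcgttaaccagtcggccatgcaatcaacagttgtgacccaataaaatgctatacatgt
Y73B6A.15 site: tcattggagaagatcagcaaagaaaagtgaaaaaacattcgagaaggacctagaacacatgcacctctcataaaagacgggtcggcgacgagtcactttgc
The F12F6.11 window also holds the reverse complement of GGTTCGA, the letters of the B box inside tRNA genes, which 2 of the 279 windows hold (0.717%), beside 1.44% of all peaks in the optimal set, X included.

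The strongest distal sites reached high ranks in the pooled list and in both replicates. The signal is the authors' own value per peak, with a scaling not given in the sources used here, so it is used to rank peaks within a list and not to compare lists. The highest site (chrI:8786904-8787060) lay 1532 bp upstream of mfb-1, an F-box gene related to the mammalian muscle gene atrogin-1. The pooled list gave it a signal of 346.7, replicate 1 gave 288.7 and replicate 2 gave 59.2, and it ranked 28, 25 and 79 in these lists. The site 5879 bp upstream of F54F12.1 (chrIII:13061237-13061388) had a pooled signal of 298.8, with 217.4 from replicate 1 and 86.5 from replicate 2. It was the site with the highest replicate 2 signal among the 279, and it ranked 44 and 28 in the replicates.

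Named genes of metabolism and signalling had the nearest 5′ end at several of the highest sites. The site by mtm-3, a myotubularin-type lipid phosphatase gene (chrIII:3801385-3801728, 1090 bp upstream), had a pooled signal of 274.9, with 237.6 from replicate 1 and 37.3 from replicate 2. At hif-1, which encodes the hypoxia-inducible factor, the site (chrV:20778248-20778591, 1987 bp upstream) had 272.5 pooled, 242.7 from replicate 1 and 38.1 from replicate 2. Both were among the 50 highest of replicate 1, at ranks 39 and 37, and lower in replicate 2, at ranks 245 and 231. The site by ogt-1, the gene of the enzyme that adds O-linked N-acetylglucosamine to proteins (chrIII:7155674-7156017, 2049 bp upstream), had 258.8, 207.2 and 46.3 in the same order. That by the RNA-binding protein gene sup-26 (chrIII:4281996-4282339, 1944 bp upstream) had 256.1, 192.5 and 63.2, and ranked 61 and 62 in the replicates. The sup-26 site thus stood almost equally high in both replicates.

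The site by din-1 (chrII:11635771-11636114, 2334 bp upstream) had a pooled signal of 213.1, with 157.2 in replicate 1 and 54.3 in replicate 2. din-1 encodes a co-repressor that works with the nuclear receptor DAF-12. The site by aakg-1, which encodes a regulatory subunit of AMP-activated protein kinase, was 8287 bp upstream (chrIII:12583516-12583859) with a pooled signal of 198.8. It had 162.0 in replicate 1 and 33.2 in replicate 2, at ranks 100 and 335. The remaining sites of the 20 highest had pooled signals from 161.6 to 211.6 and lay nearest casc-3, Y17G7B.17, R06C1.4, F22B7.9, Y48G8AR.8, pamn-1, T04C4.3, F54F12.1 again, F23F1.4, trmt-10C.2, gldi-3 and F07H5.13. All 20 were among the high peaks of both replicates, meaning as many of a replicate's highest peaks as the optimal set holds. The T04C4.3 site (chrIV:2219453-2219796, pooled signal 178.7, 133.5 in replicate 1 and 45.8 in replicate 2) was the highest of the chromosome IV sites.

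As a class the distal sites were weaker than promoter peaks and close to peaks inside genes. Their pooled signals ran from 52.6 to 346.7 with a median of 72.6 (95% interval of the median 69.3 to 76.9). Promoter peaks had a median of 81.4 and autosomal peaks inside genes 72.0, beside 77.9 for intergenic peaks on X and 77.2 for the whole optimal set. Of the sites, 119 (42.7%) were among the peaks above the median signal of the optimal set, against 54.7% of the promoter peaks. Among the 100 highest peaks were 8 of the sites and 55 promoter peaks. Peaks are not replicates and all come from the same pair of samples, so these differences were not tested, and the intervals on shares and medians cover counting error only.

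**Figure D1:**
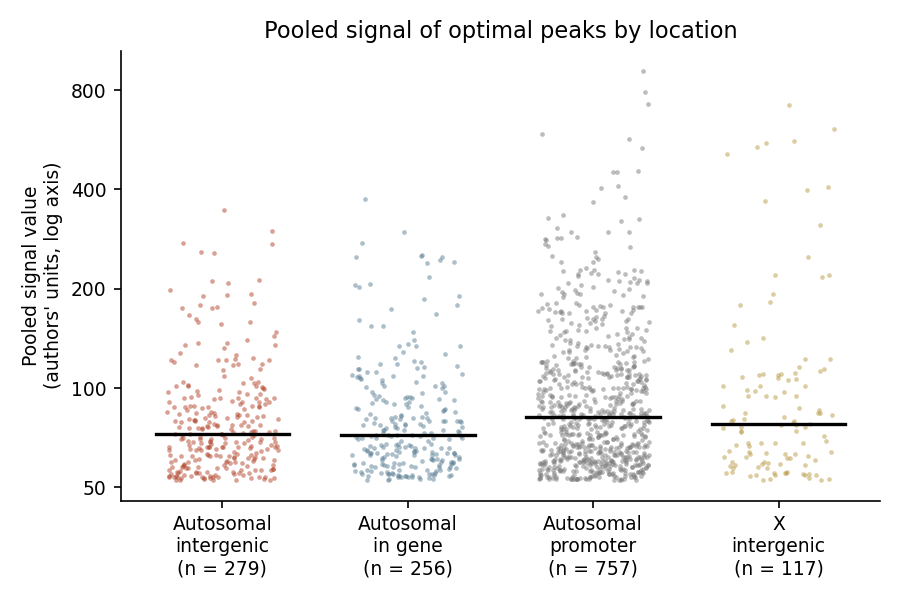
Pooled signal value of each optimal peak (vertical log axis, authors' units) by location, with 1 point per peak and a black line at the median. The 279 autosomal intergenic sites have a median of 72.6, next to 72.0 inside genes, 81.4 at promoters and 77.9 in intergenic X sequence, and their highest value is 346.7.

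The replicates contributed unequally to the sites. Of the 279, 238 (85.3%, 80.6 to 89.2%) had a summit within 100 bp among the high peaks of replicate 1, where 84.8% of all autosomal optimal peaks did. In replicate 2 the number was 148 (53.0%, 47.0 to 59.0%), where 62.2% of autosomal optimal peaks and 68.0% of promoter peaks did. The high peaks of both replicates included 121 sites (43.4%, 37.5 to 49.4%), beside 51.5% of autosomal optimal peaks and 56.8% of promoter peaks. The other classes had replicate 2 shares near that of the sites, at 54.7% for autosomal peaks inside genes and 55.6%, 53.8% and 46.3% for intergenic, promoter and gene peaks on X. The lower share in replicate 2 was therefore not particular to the distal sites, and autosomal promoter peaks stood above every other class. The high peaks of neither replicate held 14 of the sites. The relaxed lists, which hold 30000 peaks each with weak candidates included, had 275 of the sites in replicate 1 and 236 in replicate 2. For 43 sites no replicate 2 peak lay within 100 bp, and for 4 sites no replicate 1 peak did. Median signals over the sites found were 58.2 in replicate 1 and 20.5 in replicate 2.

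**Figure D2:**
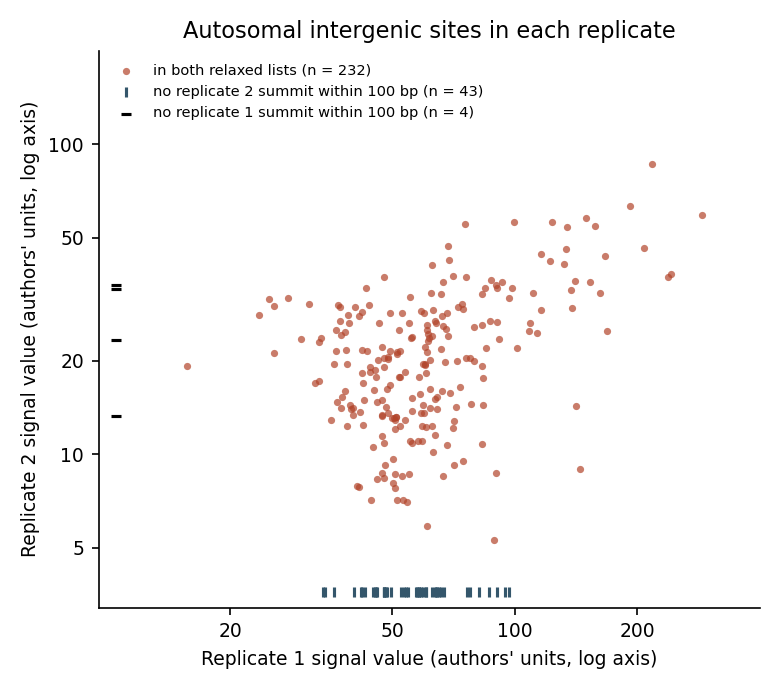
Signal value of the 279 sites in replicate 1 (horizontal) and replicate 2 (vertical), both on log axes in the authors' units, with ticks at the lower and left edges for sites with no summit within 100 bp in the other replicate. The highest sites are high in both lists, and 43 sites have no replicate 2 summit while 4 have no replicate 1 summit.

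Along the ranked pooled list the share of distal sites varied. Among autosomal peaks at ranks 1 to 200 it was 14.8% (95% exact interval 9.64 to 21.4%), and from there to rank 500 it was 15.5%. From rank 500 to rank 1000 the share was 25.1% (20.9 to 29.7%), and from there to the end of the optimal set 23.7%. Below the optimal set it was 23.8% down to rank 3000, 21.6% from there to rank 6000 and 18.0% among the weakest peaks, those beyond rank 20000, while the sequence meeting the rule is 20.1% of the autosomes. The promoter share went from 72.3% to 28.6% over the same ranks. The intervals of the first and second bins (11.1 to 20.7% for the second) include the share of the sequence, and that of the weakest bin (17.2 to 18.9%) lies below it. Those between ranks 500 and 1000 and from the end of the optimal set to rank 3000 (21.3 to 26.5%) lie above it. The interval of the bin between them (20.1 to 27.7%) starts at about that share. These differences were not tested. The median G+C content of the intergenic windows was 45.5% in the highest bin and 34.7% in the lowest.

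**Figure D3:**
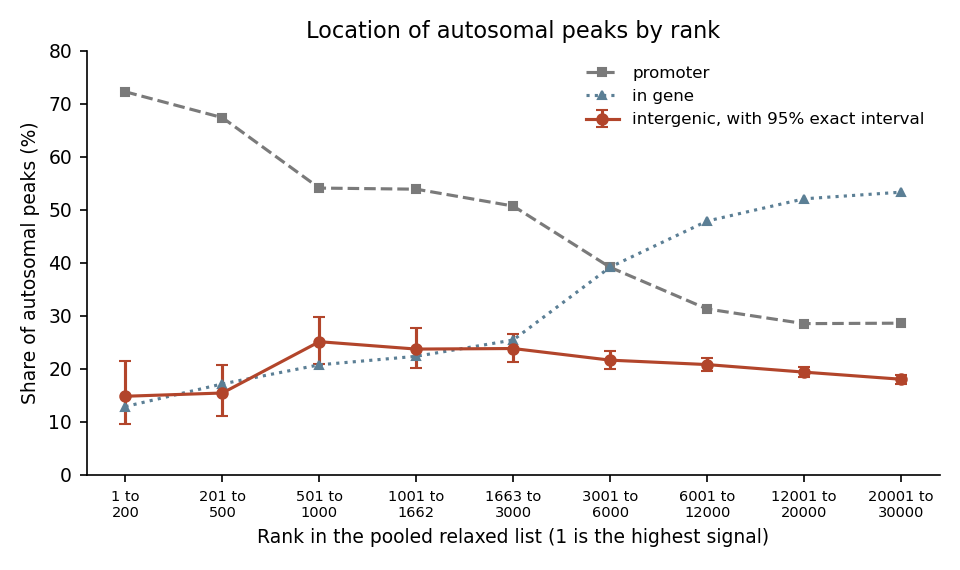
Share of autosomal peaks in each location class (vertical, %) by rank in the pooled relaxed list (horizontal, 1 is the highest signal), with 95% exact intervals for the intergenic class. The intergenic share is 14.8% at ranks 1 to 200, 25.1% between ranks 500 and 1000 and 18.0% beyond rank 20000, while the promoter share goes from 72.3% to 28.6%.

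The sites were spread over all 5 autosomes but not evenly. Chromosome III held 61 sites, or 24.5 per Mb of its sequence that meets the rule (95% Poisson interval 18.8 to 31.5), and chromosome V held 37, or 9.14 per Mb (6.44 to 12.6). Chromosomes I, II and IV held 51, 51 and 79 sites, at 20.3, 16.5 and 17.7 per Mb. The intervals of chromosomes III and V do not overlap. All optimal peaks also differed, with 291 on chromosome III and 200 on chromosome V. As a share of these the sites were alike, at 21.0% (16.4 to 26.1%) and 18.5% (13.4 to 24.6%). On chromosome IV the sites were 29.0% of the optimal peaks (23.7 to 34.8%), beside 18.5 to 21.0% on the other autosomes. On the same chromosome 25.5% of the sequence meets the rule, beside 20.1% over all autosomes.

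The middle of the chromosomes was denser in sites than the ends. With each autosome split into 3 equal parts, the middle parts held 126 sites or 23.8 per Mb (19.8 to 28.4). The left parts held 68 or 12.7 per Mb (9.87 to 16.1), and the right parts 85 or 14.3 per Mb (11.4 to 17.6). On each of the 5 autosomes the middle part had the highest density of the 3, from 13.6 per Mb on chromosome V to 30.6 per Mb on chromosome I. Whether promoter peaks and peaks inside genes were also denser in the middle was not examined here. The central regions of worm autosomes are known for lower recombination and fewer repeats than the arms. Within 50000 bp of a chromosome end lay 7 sites, among them the site by 2L52.1 with a pooled signal of 156.1, a replicate 1 signal of 144.6 and a replicate 2 signal of 8.98.

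Most sites lay upstream of the gene whose 5′ end was closest. The median distance to the nearest protein-coding 5′ end was 2259 bp (2037 to 2465), with a range from 463 to 13372 bp. Windows of the same size as those printed above, tiled over all autosomal sequence that meets the rule (164370 windows), had a median of 2631 bp. The site was upstream of its nearest 5′ end in 217 cases (77.8%, 72.4 to 82.5%), against 64.7% of the tiled windows. Intervals between convergent genes, which hold the 3′ ends of both neighbours, had 17 sites (6.09%, 3.59 to 9.58%) against 16.6% of the tiled windows. Divergent intervals had 97 (34.8%, 29.2 to 40.7%) against 30.3%, and tandem intervals 164 (58.8%) against 53.1%. The intergenic interval around a site had a median length of 4394 bp, and the nearest gene edge of any kind lay at a median of 1179 bp.

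Density was highest at 1 to 3 kb and lower farther out. Under 1 kb it was 11.5 sites per Mb from 6 sites, with an interval that overlaps those of all other bins. The rule leaves only positions downstream of the nearest 5′ end in this bin. Over all distances density was 10.6 per Mb downstream (8.10 to 13.5) and 20.2 upstream (17.6 to 23.1). By bin, density was 21.1 sites per Mb at 1 to 2 kb from the nearest 5′ end (17.4 to 25.4) and 19.6 at 2 to 3 kb. At 3 to 5 kb it was 13.6 (10.1 to 17.8). At 5 to 10 kb it was 10.7 per Mb (7.17 to 15.4), and beyond 10 kb it was 14.2 per Mb from 9 sites (6.51 to 27.0). Many sites were therefore within reach of a wider promoter definition: 57 of them (20.4%) lay at most 1500 bp upstream of a 5′ end and 100 (35.8%) at most 2000 bp.

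**Figure D4:**
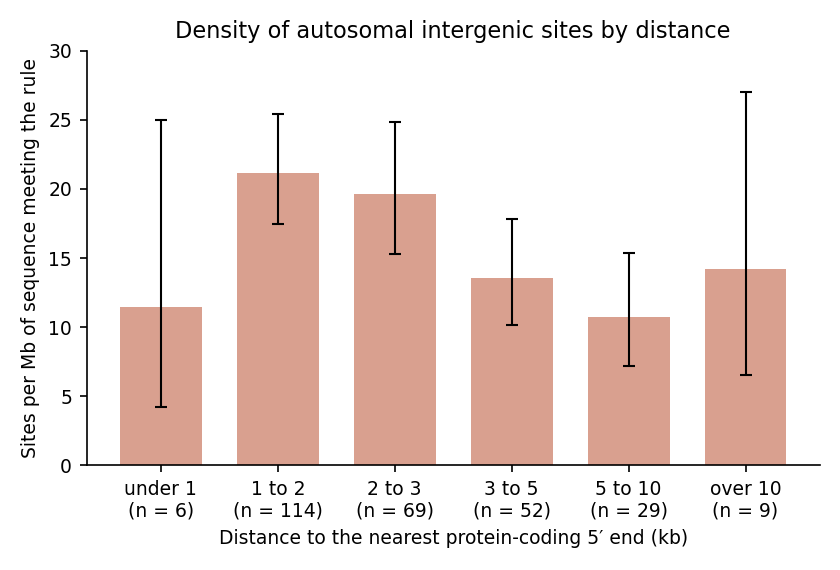
Sites per Mb of autosomal sequence that meets the rule (vertical) by distance to the nearest protein-coding 5′ end (horizontal, kb), with the number of sites under each bar and 95% Poisson intervals as error bars. Density is 21.1 per Mb at 1 to 2 kb and 10.7 per Mb at 5 to 10 kb. The bin under 1 kb can hold only positions downstream of the nearest 5′ end.

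The sites farthest from genes included strong ones. The site nearest irld-18, a gene of a receptor-like family, was 13372 bp upstream (chrIV:14594239-14594582) and no gene of any kind other than piRNA genes was closer. This site had 158.1 pooled, 99.9 from replicate 1 at rank 274 and 56.1 from replicate 2 at rank 89. The site by C31H1.2 (chrIV:5778305-5778648) was 12573 bp from any gene, with 53.6 pooled, 41.5 from replicate 1 and 7.87 from replicate 2. The aakg-1 site described above was next by this measure. The 3 sites just outside the promoter windows lay 1008 bp upstream of sup-26, 1016 bp upstream of vps-36 and 1028 bp upstream of oac-50, with pooled signals of 53.6, 88.0 and 66.4. The 3 promoter peaks just inside lay 1000 bp upstream of zfp-1, 991 bp upstream of mrpl-23 and 991 bp upstream of pas-5, with 175.5, 83.6 and 82.3.

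The DNA at the summits was rich in G and C and poor in repeats compared with its surroundings. The median G+C content of the window at the summit was 43.6% (42.6 to 44.6%), against 33.7% in the window centred 250 bp to the right and 32.7% in the tiled windows. Promoter peaks, at 44.6%, were close to the sites. Windows that the reference marks as repeats or low-complexity sequence (soft-masked) over 50% or more of their length numbered 21 of 279 (7.53%, 4.72 to 11.3%). The same was true of 39.7% of the tiled windows, 10.8% of promoter peaks and 9.37% of autosomal optimal peaks. Around the summits the masked share was 35.1% at 500 bp to the left and 34.4% at 500 bp to the right. With the high peaks of replicate 2 in place of the optimal set, 272 peaks met the rule and 15.8% of their windows were masked, and the median G+C content was 40.6%. The central 31 bases of the site were found at 1 place in the genome for 276 sites. The exceptions were a site near Y48G8AR.8 with 18 copies (pooled signal 190.5), a site near ari-2 with 219 copies (65.3) and a site near K08F11.1 with 7 copies (55.6). The deposited lists do not show how reads with several matches were placed.

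The NR4A element was rare at the sites, as it was in the other windows searched. AAAGGTCA was in 0 of 279 windows at the summit, which allows a share of up to 1.31%, and in 0.310% of autosomal optimal peaks, 0.367% of the tiled windows and 2 of the 279 windows 250 bp away. With 100 bp to each side of the summit, 3 sites (1.08%) held it. The core AGGTCA was in 10 windows at the summit (3.58%, 1.73 to 6.49%) and in the same number 250 bp away, against 2.74% of the tiled windows. Among tiled windows with a G+C content between 38.6% and 48.5%, the middle range of the sites, 3.89% held it. The ret-1, fat-2 and wnk-1 windows printed above are the highest of the sites with the core outside chromosome I. These letters were searched on both strands, as were all others. A lack of matches says only that the letters are not within these windows.

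GA repeats were the most frequent of the searched 8-mers at the summits. GAGAGAGA was in 52 windows (18.6%, 14.2 to 23.7%), in 6 of the windows 250 bp away and in 0.937% of the tiled windows. It was in 10.8% of autosomal optimal peaks, 6.47% of promoter peaks (4.83 to 8.47%), 14.8% of autosomal peaks inside genes and 5.13% of intergenic X peaks. The interval of the distal sites thus lies above those of promoter peaks and of tiled windows and overlaps that of peaks inside genes. The repeat was at the summit and not in the flank at 50 sites and in the flank alone at 4. Its median distance from the summit was 15.5 bp, and at 35 of the 52 sites it was within 25 bp. Among tiled windows with a G+C content between 38.6% and 48.5%, the middle range of the sites, 1.96% held it. Examples are the din-1, Y17G7B.17, aakg-1, F23F1.4 and M117.1 windows above. With the high peaks of replicate 2 in place of the optimal set, the share was 12.1%.

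A different 8-mer was also frequent. AGACGCAG, picked from a count of all 8-mers after its values were seen, was in 40 windows (14.3%, 10.4 to 19.0%), in 2 of the windows 250 bp away and in 0.666% of the tiled windows. It was in 11.8% of autosomal optimal peaks, 11.5% of promoter peaks, 10.2% of autosomal peaks inside genes and 3.42% of intergenic X peaks. Unlike the GA repeat, its interval at the distal sites overlaps that of promoter peaks (9.31 to 14.0%). The median distance from the summit was 23.5 bp, and at 21 of the 40 sites it was within 25 bp. The window reaches only 50 bp to each side, so these values say little on position within it. The windows by F54F12.1, T04C4.3 and 2L52.1 carry AGACGCAG without GAGAGAGA. Both 8-mers occurred in 13 windows and at least 1 of them in 79 (28.3%, 23.1 to 34.0%), against 16.8% of promoter peaks and 1.55% of tiled windows.

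**Figure D5:**
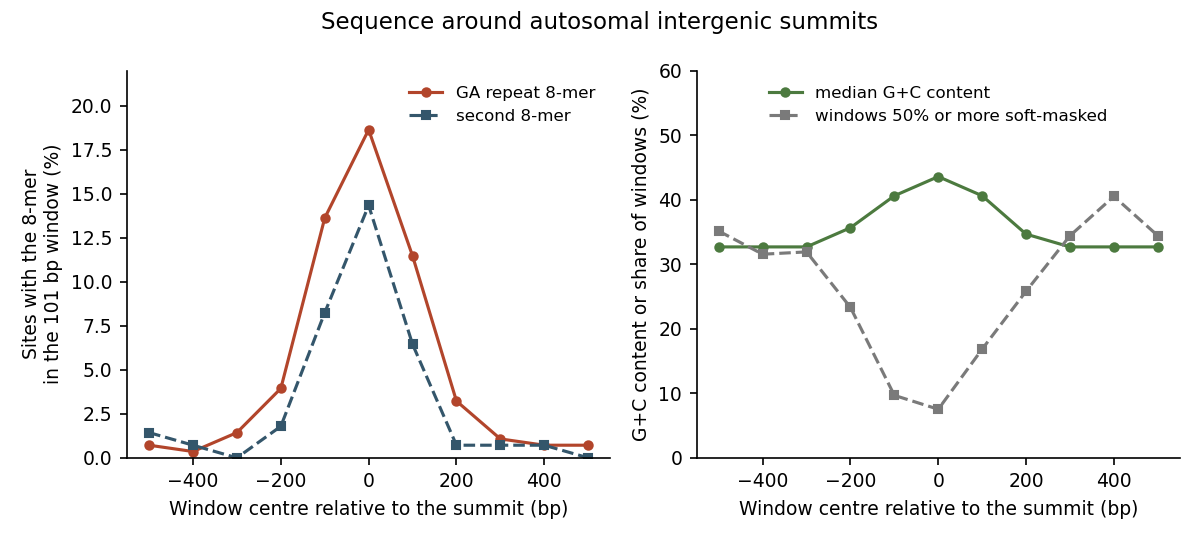
Left, share of the 279 sites (vertical, %) whose window holds the GA repeat 8-mer (GAGAGAGA) or the second 8-mer (AGACGCAG), by the position of the window centre relative to the summit (horizontal, bp); right, median G+C content and the share of windows soft-masked over 50% or more of their length. The 8-mers peak at the summit at 18.6% and 14.3%, where G+C content is highest at 43.6% and the masked share lowest at 7.53%.

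The sites with an 8-mer were also counted among the high peaks of each replicate. Over all 279 sites the shares were 85.3% in replicate 1 and 53.0% in replicate 2. Over autosomal optimal peaks they were 84.8% and 62.2%. Of the 52 sites with GAGAGAGA, 47 (90.4%) were among the high peaks of replicate 1 and 23 (44.2%) among those of replicate 2. For the 40 sites with AGACGCAG the numbers were 37 and 16. The 200 sites with neither 8-mer had 82.5% in replicate 1 and 56.0% in replicate 2. Pooled signals were similar, with medians of 72.9, 76.7 and 72.4 in the same order. The part of the replicate in these shares was not tested.

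Other searched letters were less frequent. The E box CACGTG was in 16 windows (5.73%, 3.31 to 9.15%), in 3 of the windows 250 bp away, in 5.81% of promoter peaks and in 1.38% of the tiled windows. Among tiled windows in the G+C range used above for the GA repeat, 2.75% held it. The CREB site TGACGTCA was in 7 windows (2.51%), beside 1.74% of all optimal peaks, and in none of the windows 250 bp away. The AP-1 site TGACTCA was in 0 windows, which allows up to 1.31%, beside 0.782% of all optimal peaks. Some letters were more frequent at promoter peaks than at the sites, where they were close to the share of the tiled windows. The forkhead-type TGTTTGC was in 4 windows (1.43%, 0.392 to 3.63%). It was in 6.34% of promoter peaks, 2.34% of autosomal peaks inside genes and 1.66% of the tiled windows. The E2F-type TTTCGCG was in 3 (1.08%, 0.222 to 3.11%), against 4.89%, 0.781% and 1.10% in the same order. The run ATTTTTTTT was in 1 window, in 17 of the windows 250 bp away and in 7.22% of the tiled windows. Of the tiled windows in that G+C range, 1.84% held it. The GATA site TGATAA was in 15 windows (5.38%) and in 27 of the windows 250 bp away, beside 5.23% of all optimal peaks and 9.01% of the tiled windows. In the same G+C range 5.83% of the tiled windows held TGATAA, close to the share of the sites. Of the other letters searched, TGTTTAC was in 4 windows (1.43%), GGGCGG in 9 (3.23%), TTAATTAA in 1 (0.358%) and GTTTCAA in 9 (3.23%). Among all optimal peaks the shares were close to these, at 1.87%, 3.49%, 0.241% and 2.77% in the same order.

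Non-coding genes started near some of the sites. The 5′ end of a non-coding gene other than a piRNA gene or pseudogene lay within 1000 bp of 60 sites (21.5%, 16.8 to 26.8%), against 13.6% of the tiled windows and 26.4% of autosomal optimal peaks. Classes were counted by the nearest such gene alone, so a second start nearby was left out. The class listed only as ncRNA accounted for 41 of them (14.7%), beside 11.3% of the tiled windows. Genes annotated as snoRNA accounted for 12 (4.30%, 2.24 to 7.39%), beside 0.520% of the tiled windows, 3.57% of promoter peaks and 5.86% of autosomal peaks inside genes. The snoRNA share of the sites was thus above that of the tiled windows and close to that of other peaks. Genes for tRNA were the nearest such gene within 1000 bp at no site, which allows up to 1.31%. The share was 5.98% of intergenic X peaks and 0.440% of the tiled windows. A tRNA gene did start within 1000 bp of a site by dmd-6 (pooled signal 56.4), where the ncRNA gene F13G11.145 was nearer.

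Several of these starts were close to the summit. The site 50 bp upstream of F12F6.11, whose window is printed above, had signals of 88.0 in the pooled list and 76.3 in replicate 1 and no replicate 2 peak within 100 bp. Those by the snoRNA genes B0379.13 (54 bp upstream), T06C12.16 (82 bp) and T26A8.6 (100 bp) had pooled signals of 59.7, 63.1 and 77.2. The T06C12.16 site also had no replicate 2 peak within 100 bp. Spliced-leader RNA genes, whose products are joined to the starts of worm messenger RNAs, lay near 2 sites, sls-2.17 at 14 bp and sls-2.3 at 75 bp, with pooled signals of 62.1 and 57.8. The microRNA gene listed as cel-mir-53 had a site 152 bp upstream with a pooled signal of 118.0, 86.8 from replicate 1 and 26.9 from replicate 2. It was the only microRNA gene within 1000 bp that was also the nearest non-coding gene of a site. The 5′ end of cel-mir-228 also lay within 1000 bp of the site near ari-2, where the ncRNA gene T12E12.44 was nearer. Long intergenic RNA genes were the nearest non-coding gene for 4 of the sites, among them linc-50, linc-105 and linc-146.

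The piRNA genes encode germline small RNAs and lie in large clusters on chromosome IV. A piRNA gene lay within 1000 bp of 29 sites (10.4%, 7.07 to 14.6%) and of 13.3% of the tiled windows, and no summit was inside one. On chromosome IV the sequence within 1000 bp of such a gene held 27 sites or 13.3 per Mb (8.78 to 19.4), and the rest of the sequence 52 or 21.4 per Mb (16.0 to 28.0). These intervals overlap.

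Some of the sites came in groups. Another optimal peak lay within 2000 bp of 74 sites (26.5%, 21.4 to 32.1%), and it was another of the distal sites for 52, a promoter peak for 13 and a peak inside a gene for 9. The same was true of 18.0% of promoter peaks and 34.8% of autosomal peaks inside genes. The longest group was on chromosome II, with 5 sites over 6213 bp and pooled signals from 60.3 to 89.7. It lay between snt-1, the synaptotagmin gene of transmitter release, and egl-27, a gene of a chromatin regulator, at distances from 7390 to 11545 bp. Groups of 3 sites included those by din-1, sup-26, gldi-3, mnk-1, idpb-4 and dmd-6. By F54F12.1 a pair of sites 1353 bp apart had 298.8 and 175.6. Some neighbouring peaks overlapped, as by sup-26, Y39E4B.6 and F40E3.3, where summits were 209, 204 and 199 bp apart. Such calls may not be separate binding sites. Neighbouring sites may share fragments of the same chromatin, so they are not independent.

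For some of the sites the nearest gene also had a promoter peak. The nearest gene had an optimal peak in the promoter window of any of its transcripts for 42 sites (15.1%, 11.1 to 19.8%). The same was true of 4.15% of the tiled windows, and 5.81% of autosomal protein-coding genes had such a peak. For the sites the share depended on the rule. It was 26.8% with a promoter window from 2000 bp upstream and 8.40% among the peaks above the median signal. Both changes also altered which promoter peaks were counted, and the background shares were not recomputed for them. The promoter peak can lie at a start farther inside the gene than the 5′ end nearest the site, as at hif-1, dmd-6, fkh-7 and vhp-1. Either the distal site or the promoter peak could be the stronger. At hif-1 the distal site had a pooled signal of 272.5 and the promoter peak 71.8, and at ogt-1 they had 258.8 and 171.5. The 3 distal sites of din-1 had 213.1, 66.6 and 62.4 beside 86.4 at its promoter. At cox-5A, which encodes a subunit of cytochrome c oxidase, the distal site had 79.5 and the promoter peak 403.3. At cdc-48.1, the gene of a protein quality control ATPase, the values were 56.5 and 912.7, the latter being the highest peak of the optimal set. dmd-6, a gene of the doublesex family, had 4 distal sites with 55.6 to 103.8 beside 78.5 at its promoter. Other genes with both kinds of peak were vha-8 (a subunit of the vacuolar proton pump), rps-28 (a ribosomal protein), nhr-21, tom-1, mef-2, fkh-7, pde-2, vhp-1 and adh-1.

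By gene family, nuclear receptor genes were the most frequent neighbours among the 13 families searched, each found by the start of the gene symbol. The 279 sites had 248 different nearest genes. In 13 cases (4.66%, 2.50 to 7.84%) this was a gene named nhr, beside 1.35% of all protein-coding genes and 1.99% of the tiled windows. The 3 highest were nhr-88, nhr-10 and nhr-105, with pooled signals of 148.0, 135.0 and 102.0, replicate 1 signals of 116.1, 92.9 and 83.7, and replicate 2 signals of 29.1, 35.9 and 14.5. The others were nhr-46, nhr-61, nhr-4, nhr-34, nhr-21, nhr-162, nhr-286, nhr-258, nhr-84 and nhr-157, with 52.8 to 93.5. For nhr-21 and nhr-162 no replicate 2 peak lay within 100 bp. Each of the 13 genes had 1 site, and 12 of the sites were upstream of the 5′ end.

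Genes named unc, for uncoordinated movement, were nearest to 6 sites (2.15%, 0.793 to 4.62%), beside 0.764% of the tiled windows. They were unc-116 (kinesin heavy chain, pooled signal 132.0), unc-51 (an autophagy and axon growth kinase, 91.6), unc-64 (syntaxin, 79.2), unc-63 (an acetylcholine receptor subunit, 73.3), unc-44 (ankyrin, 61.3) and unc-57 (endophilin, 54.7). All 6 sites lay 1147 to 1549 bp upstream. Genes with symbols that start with sr, most of them chemoreceptor genes, were the largest family searched and were nearest to 1 site, at srg-33 (0.358%, up to 1.98%), beside 5.86% of genes and 4.92% of the tiled windows. The search did not cover chemoreceptor genes named str, and str-56 was nearest to 1 more site, with a pooled signal of 63.1. Genes with the F-box symbols that start with fbx, C-type lectins, histones, cytochromes P450 and innexins were nearest to none, and the fbx genes were nearest to 1.27% and C-type lectins to 0.804% of the tiled windows. The F-box gene mfb-1, by the highest site, has another kind of symbol. The homeobox genes ceh-48 and ceh-43, the collagen gene col-98, the ribosomal protein gene rps-28, the neuropeptide gene nlp-40 and the insulin-like gene ins-13 were each nearest to 1 site. Nearness is a position on the chromosome, and no effect on expression was measured.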

How the data were processed

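Peak lists of 2 replicates and of both pooled were used, on build ce11, with gene models of Ensembl release 115 and the RefSeq genome of the same build. Per the labels, both samples formed 1 group, so no test between conditions was possible. The deposited lists give the authors' signal value per peak, a score with a scaling not given in the sources used here. The optimal set held 1662 peaks. They also give −log10 of a q-value by the authors and the deposited summit offset from the peak start. Per the labels' file lists, the authors derived the optimal set from the relaxed lists with the irreproducible discovery rate. The names of the aligner and peak caller and the threshold were not given in the sources used here. Read depth is unknown. Lists on ce10 and the control experiment that the labels name as possible were not analysed here.

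Counts, medians and shares were computed with Python 3.11.15, numpy 2.4.6 and scipy 1.17.1, and figures with matplotlib 3.10.9. Intervals (Clopper-Pearson or Poisson, 95%) cover counting error only. Background windows of 101 bp tiled all autosomal sequence that meets the rule. The sites, gene families and letters were chosen with earlier results of these data known. Named items were the 20 highest sites, the highest of each chromosome, the 3 farthest from any gene, those at the edge of the rule, repeated windows and up to 3 sites per family. Groups, promoter peaks of nearest genes, non-coding neighbours and further family members were named after their values were seen. The scripts were tested on simulated data.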

Additional observations from a re-analysis of the deposited data

How the results depend on the processing

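Of 96 values of 16 results under alternatives, 66 stayed close to the main value and 30 moved, where close means within its counting interval or, for the number of sites, within 1.5 times of it. The alternatives for the 8-mers, masking, orientation, snoRNA genes and promoter peaks of nearest genes, and those limited to peaks of the usual pooled width, were chosen after seeing the data. A promoter window from 2000 bp upstream left 179 sites (13.9% of autosomal peaks, median distance 3002 bp), and one from 500 bp gave 353 sites (27.3%). The peaks above the median signal held 119 sites (18.5%), with a median signal of 98.4 and a median distance of 1994 bp, of which 100% were in the high peaks of replicate 1 and 74.8% in those of replicate 2. Matching within 50 bp gave 79.2% and 43.7%. AAAGGTCA with 1 mismatch before the core was in 2.15% and the core alone in 3.58%. Non-coding 5′ ends lay within 500 bp of 14.0% and within 2000 bp of 34.1%.

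Windows of 25 and 100 bp to each side gave 12.2% and 30.8% for GAGAGAGA, 6.09% and 21.9% for AGACGCAG, and 12.5% and 3.94% for masking, and the wider window a G+C content of 42.3%. With 1 replicate left out at a time, G+C content was 40.6 to 44.6%, GAGAGAGA 12.1 to 19.2%, AGACGCAG 10.3 to 15.3% and masking 7.12 to 15.8%. The lower G+C content and 8-mer shares and the higher masking came from leaving out replicate 1. A promoter peak of the nearest gene was found for 26.8% of sites with the 2000 bp window and 8.40% among the higher peaks, where the promoter peaks counted also changed. The causes were not tested. No paired analysis was possible because there was 1 group. Peak lists without read depth limit how far weak sites can be told from none, and the 0 of 279 for AAAGGTCA allows up to 1.31%, while 100 bp to each side gave 3 of 279 (1.08%).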
